A study of Homo sapiens with 25 samples.

Results

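Small nucleolar RNA (snoRNA) host genes were taken as every gene whose symbol is SNHG followed by a number, together with GAS5, ZFAS1 and EPB41L4A-AS1. The rule found 31 genes among the 58302 of the deposited tables, and it used no measured value. The libraries came from hiF-T cells, a line of BJ skin fibroblasts that carries inducible hTERT, the catalytic subunit of telomerase. All groups share the labelled wild-type genotype, and the labels do not say whether hTERT was induced. The gated groups were high, midhigh, midlow and low accumulation of a dye, set against ungated cells, with 4 libraries each, labelled as biological replicates; the series describes this as a sort by proliferation status. The drug set held 2 libraries of LSD1 inhibition and 1 of DOT1L inhibition, against 1 of DMSO and 1 of no drug. LSD1 removes methyl groups from histone H3 and DOT1L adds them. The compounds, doses and times were not given in the sources used here, and every library came from 1 line, so replicates show the spread between samples of that line only.

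A snoRNA host gene is transcribed by RNA polymerase II as a long RNA whose introns carry snoRNAs. After splicing, the introns are trimmed to mature snoRNAs, which bind a set of core proteins. Box C/D snoRNAs guide 2′-O-methylation of ribosomal RNA and H/ACA snoRNAs guide its conversion of uridine to pseudouridine. The spliced exons of many of these hosts code for no long protein, are bound by ribosomes and are destroyed by nonsense-mediated decay. Several host genes start transcription at a C followed by pyrimidines, the terminal oligopyrimidine (TOP) start that ribosomal protein genes also use. A polyadenylated RNA library is made to measure the host RNA and not the mature snoRNAs, so nothing below is read as a level of a snoRNA. Annotated exons also take in introns that some transcripts keep. In SNHG1, for example, all 7 snoRNAs annotated by GENCODE overlap exons. The counts therefore cannot separate spliced from unspliced host RNA.

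The starts of the 8 host genes that passed between the outer dye gates are shown because the kind of start is a feature the choice of genes did not use; the run marked below stands in 2 of the 8. SNHG5 and ZFAS1, which did not pass, are added as further examples of the run. Each line gives 60 bases of RefSeq sequence (GRCh38.p14) read 5′ to 3′ on the gene's strand, from 30 bases before the annotated start to 30 from it onward. Capitals mark an unbroken run of C and T that begins with C at the start itself and has at least 4 further pyrimidines; a sequence without capitals has no such run. The windows are chr11:62855856-62855915, minus strand, for SNHG1; chr1:28505913-28505972, plus strand, for SNHG3; chr1:28581844-28581903, minus strand, for SNHG12; chr20:38435299-38435358, minus strand, for SNHG17; chr7:22854210-22854269, plus strand, for SNHG26; chr4:118278732-118278791, plus strand, for SNHG8; chr15:24823578-24823637, plus strand, for SNHG14, upstream of its GENCODE bounds; chr6:31834886-31834945, plus strand, for SNHG32; chr6:85678704-85678763, minus strand, for SNHG5; and chr20:49278612-49278671, plus strand, for ZFAS1.
SNHG1: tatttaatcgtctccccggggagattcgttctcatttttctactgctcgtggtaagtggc
SNHG3: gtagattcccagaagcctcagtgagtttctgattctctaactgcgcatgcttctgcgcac
SNHG12: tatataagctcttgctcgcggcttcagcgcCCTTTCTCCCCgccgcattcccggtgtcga
SNHG17: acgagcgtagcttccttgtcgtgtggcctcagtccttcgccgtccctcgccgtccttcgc
SNHG26: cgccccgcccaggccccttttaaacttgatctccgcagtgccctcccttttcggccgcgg
SNHG8: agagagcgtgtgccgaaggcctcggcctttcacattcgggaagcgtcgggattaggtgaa
SNHG14: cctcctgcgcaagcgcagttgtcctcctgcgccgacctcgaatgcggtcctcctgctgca
SNHG32: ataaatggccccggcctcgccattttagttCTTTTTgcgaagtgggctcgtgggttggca
SNHG5: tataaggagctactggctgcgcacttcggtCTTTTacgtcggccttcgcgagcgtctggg
ZFAS1: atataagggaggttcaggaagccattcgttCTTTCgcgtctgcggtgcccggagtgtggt

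A start window was found for 27 of the 31 host genes. The C and its run of 4 or more pyrimidines stood at the annotated start of 7 of them, 25.9%, against 4.07% of the 35116 windows of all genes. Those genes were SNHG4, SNHG5, SNHG12, SNHG18, SNHG19, SNHG32 and ZFAS1. In SNHG1 the start base is a C, but the pyrimidine run from it breaks off too early to count, so the match depends on which base is annotated as the start. The windows of SNHG3, GAS5 and SNHG27, like that of SNHG14, lie wholly upstream of the gene's GENCODE bounds. The kind of start given for these genes rests on sequence outside those bounds. CACGTG, the letters of the E-box, stood within the 300-base window of 2 host genes, SNHG7 and SNHG30, which is 7.41% against 7.26% of all windows. TATAAA on either strand stood in 4 host gene windows, 14.8% against 11.5% of all. A match of letters is a description and shows no factor or start in use in these cells.

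RefSeq placed 150 snoRNA entries within the bounds of 30 of the 31 genes. Box C/D snoRNAs alone lay in 12 genes, H/ACA snoRNAs alone in 10 and both kinds in 3. In 4 genes, SNHG10, SNHG20, SNHG21 and SNHG22, the entry was a scaRNA, the kind that acts in Cajal bodies. SNHG28 held 1 entry with no snoRNA name, and SNHG27 held none. SNHG14 alone held 83 box C/D entries, which include the SNORD115 and SNORD116 clusters of the imprinted Prader-Willi region on chromosome 15.

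Between 15015039 and 20030093 reads per library were counted in genes over the 25 libraries. The host genes received 13969 to 19925 of them, 0.0885 to 0.110% of a library. Genes annotated as snoRNAs themselves held only 0.00286 to 0.00473%, with 105 to 153 of 943 showing any read. Reads that hit more than 1 gene made up 7.14 to 7.62% of gene counts and rows that name no gene together. Mitochondrial genes made up 2.19 to 3.12% of gene counts. The summed host gene share was 0.102 ± 0.00544% in high dye cells and 0.104 ± 0.00179% in low dye cells (SD, n = 4 each), which overlap.

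Levels are given as CPM, counts scaled to a common library total and corrected for library composition, and, between genes, as CPM per kilobase of exon. Exon length counts each base that is exon in any annotated transcript, kept introns included, so the level per length depends on the annotation. SNHG5, the host of SNORD50A and SNORD50B, had the highest median level per length over the 20 sort libraries, 44.2 CPM per kilobase, with a range of 36.8 to 52.3. SNHG29, the host of SNORD49A, SNORD49B and SNORD65, had a median of 39.6 and GAS5, which carries 10 box C/D snoRNAs, a median of 39.3 CPM per kilobase. SNHG8 followed with a median of 38.0 and SNHG19 with 36.5 CPM per kilobase. The ranges of these 5 genes overlap, so their order is not set beyond the spread over libraries. By counts instead of by length, SNHG29, GAS5, SNHG5, SNHG1 and SNHG3 together took 59.2% of all host gene counts.

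**Figure D1:**
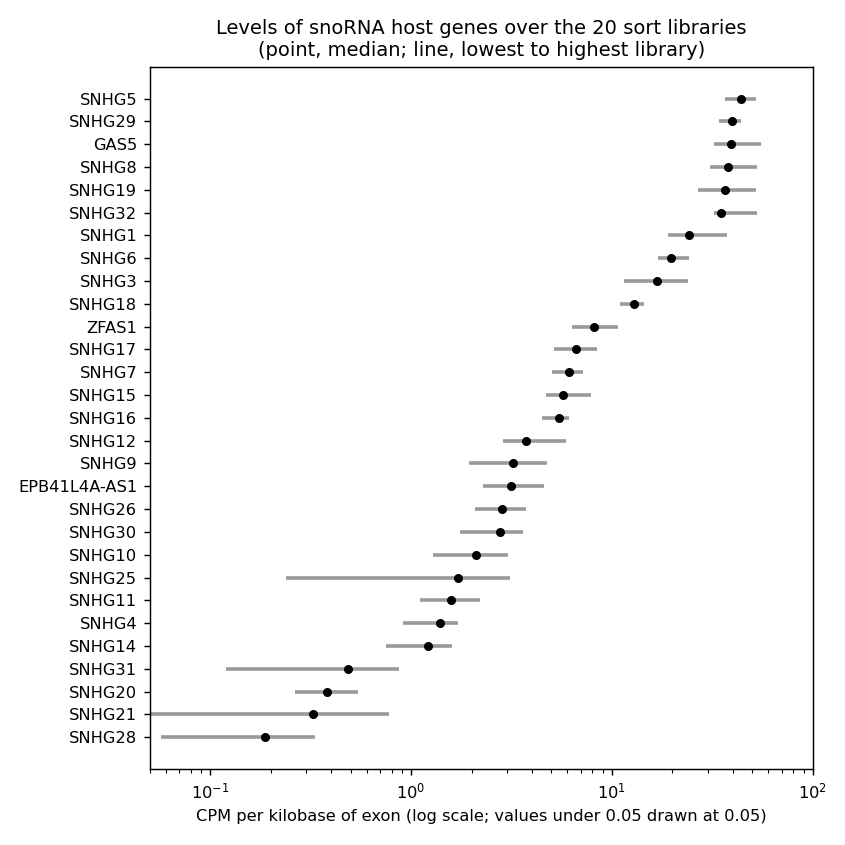
CPM per kilobase of exon on a log axis for the host genes with more than 3 counts in some library; points are medians and lines run from the lowest to the highest of the 20 sort libraries. SNHG5 has the highest median, at 44.2, and the medians of the lowest genes lie under 0.5 CPM per kilobase.

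At the other end, SNHG27 had no read in any library, which allows up to 3 counts, or 0.150 to 0.200 CPM, in each. SNHG22 had at most 3 counts in any sort library, SNHG21 at most 16 and SNHG25 at most 17. These 4 genes failed the filter on low counts, which left 27 host genes for the tests between gates. SNHG14 had a median of 52.8 CPM, but its annotated exons span 43324 bases, so its level per length was only 1.22 CPM per kilobase.

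The first comparison asks which host RNAs differ between cells of the outer dye gates. SNHG1 and SNHG3, the hosts of SNORD25 to SNORD31 and of SNORA73A and SNORA73B, fell in high dye cells to 0.651 and 0.606 of their low dye level. SNHG12, SNHG17 and SNHG26 also fell, and SNHG8, SNHG32 and SNHG14 rose. With edgeR's quasi-likelihood test over all genes and no replicate block, 8 of the 27 measured host genes passed an adjusted p of 0.05. That is 29.6% of them, against a percent called of 17.7% over all 14592 genes tested. Replicate numbers pair the sort samples, and values given without a block do not use that pairing. By direction, 3 rose and 5 fell, while 9.39% of all genes rose and 8.35% fell. The median log2 fold change was -0.06 for the host genes (-0.09 to -0.01 with 1 library left out) and 0.01 for all genes.

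SNHG1 (ENSG00000255717, chromosome 11) carries the box C/D snoRNAs SNORD22 and SNORD25 to SNORD31. It had 80.6, 88.9, 71.8 and 78.0 CPM in the 4 high dye libraries, against 121, 109, 141 and 119 CPM in the 4 low dye libraries. Every high dye library lay below every low dye library. The log2 fold change was -0.62 ± 0.10 (SE), edgeR adjusted p = 0.000951.

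SNHG3 (ENSG00000242125, chromosome 1) carries the H/ACA RNAs SNORA73A and SNORA73B, also known as U17, which act in the cleavage of precursor ribosomal RNA. It had 52.8, 61.3, 46.7 and 67.9 CPM in high dye libraries, against 87.4, 98.1, 98.0 and 93.6 CPM in low dye libraries. The groups did not overlap, and the log2 fold change was -0.72 ± 0.12 (SE), edgeR adjusted p = 0.000951. RCC1, which encodes the nuclear exchange factor of the GTPase Ran, shares 5.92% of SNHG3's exon bases on the same strand. RCC1 averaged 68.0 CPM in high dye libraries, against 104 CPM in low dye libraries, a log2 fold change of -0.61 ± 0.15 (SE), edgeR adjusted p = 0.00998. Reads in the shared bases cannot be assigned to either gene.

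SNHG12 (ENSG00000197989, chromosome 1) lies near SNHG3 and carries SNORA16A, SNORA44, SNORA61 and SNORD99, so both kinds of snoRNA. It had 12.7, 12.3, 15.3 and 14.9 CPM in high dye libraries, against 18.5, 17.3, 25.1 and 19.5 CPM in low dye libraries. The groups did not overlap, with a log2 fold change of -0.54 ± 0.11 (SE) and an edgeR adjusted p of 0.00375. SNHG12 is the only one of the 5 genes that fell whose RefSeq start carries the pyrimidine run printed above; that start lies inside the GENCODE bounds of the gene, 28578538 to 28583132, and not at their end.

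SNHG17 (ENSG00000196756, chromosome 20), the host of SNORA71A to SNORA71D, had 24.4, 21.6, 24.4 and 29.5 CPM in high dye libraries, against 32.2, 28.2, 33.7 and 35.1 CPM in low dye libraries. The groups overlapped through the high dye library of replicate 4 and the low dye library of replicate 2, though each replicate number was lower in high dye. The log2 fold change was -0.37 ± 0.10 (SE), edgeR adjusted p = 0.0179. SNHG17 missed the threshold without high dye replicate 3 or without low dye replicate 4, with an adjusted p of at most 0.0585. Those fits did not hold the replicate number as a block. With that block and all libraries, the edgeR adjusted p was 0.000352.

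SNHG26 (ENSG00000228649, chromosome 7), the host of SNORD93, had 7.53, 7.11, 6.54 and 5.45 CPM in high dye libraries, against 7.83, 8.39, 9.28 and 9.86 CPM in low dye libraries. The groups did not overlap but lay close, with a log2 fold change of -0.41 ± 0.14 (SE) and an edgeR adjusted p of 0.0441. Its call was lost in 5 of the 8 fits that left out 1 high or low dye library, with an adjusted p of up to 0.121. Those fits had no replicate block. With the block and all libraries, the edgeR adjusted p of SNHG26 was 0.0202.

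SNHG8 (ENSG00000269893, chromosome 4) carries 1 H/ACA snoRNA, SNORA24. It had 48.7, 41.1, 46.2 and 48.2 CPM in high dye libraries, against 28.4, 36.7, 33.5 and 32.9 CPM in low dye libraries. Every high dye library lay above every low dye library, with a log2 fold change of 0.49 ± 0.09 (SE) and an edgeR adjusted p of 0.00174.

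SNHG32 (ENSG00000204387, chromosome 6), the host of SNORD48 and SNORD52, is the 1 gene of this group that rose and has a pyrimidine run at its annotated start. It had 95.4, 75.5, 81.8 and 71.2 CPM in high dye libraries, against 62.4, 57.8, 60.9 and 63.1 CPM in low dye libraries. The groups did not overlap, with a log2 fold change of 0.41 ± 0.08 (SE) and an edgeR adjusted p of 0.00223.

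SNHG14 (ENSG00000224078, chromosome 15) is the long transcript of the Prader-Willi region, made from the paternal copy, and is annotated as overlapping UBE3A on the opposite strand. Whether the transcript reaches UBE3A in these cells was not tested. It had 52.8, 58.6, 57.9 and 59.5 CPM in high dye libraries, against 40.2, 50.1, 32.6 and 40.7 CPM in low dye libraries. The groups did not overlap, with a log2 fold change of 0.48 ± 0.14 (SE) and an edgeR adjusted p of 0.0210. The call was lost without high dye replicate 3 or low dye replicate 3, with an adjusted p of at most 0.0795 in fits that had no replicate block. With the block and all libraries, the edgeR adjusted p of SNHG14 was 0.00117. UBE3A, a ubiquitin ligase gene on the opposite strand with 0.457% of SNHG14's exon bases in common, averaged 139 CPM in high dye libraries, against 153 CPM in low dye libraries, with a log2 fold change of -0.14 ± 0.06 (SE) and an edgeR adjusted p of 0.141, or 0.0474 with the replicate number held as a block. SNRPN, which shares 0.325% of the bases on the same strand, averaged 1.84 CPM in high dye libraries, against 1.05 CPM in low dye libraries, edgeR adjusted p = 0.0681, or 0.0343 with the block. The preparation kit named in the labels does not mark strand, so reads from overlapping genes on opposite strands cannot be told apart.

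**Figure D2:**
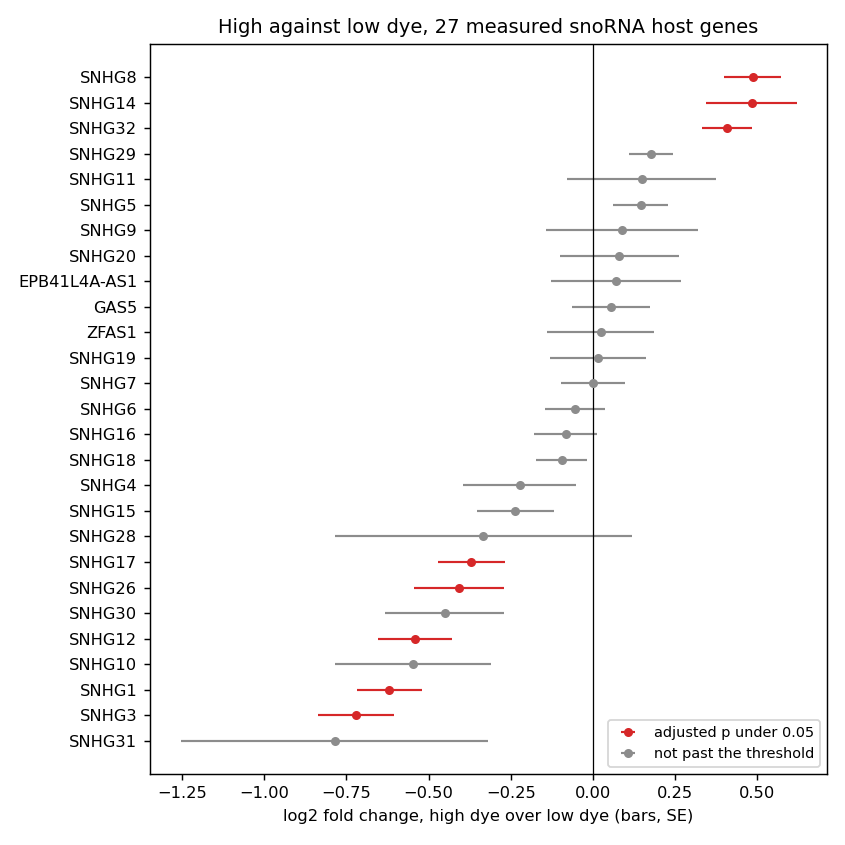
Log2 fold change of high over low dye for the 27 measured host genes, with bars of 1 SE; red points passed an adjusted p of 0.05. The 3 genes that rose lie between 0.41 and 0.49 and the 5 that fell between -0.72 and -0.37, while SNHG31 has the lowest value, -0.79, and a wide bar.

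Groups did not overlap for 7 of the 27 host genes, 3 higher and 4 lower in high dye, against 19.0% of all genes. When the replicate number was held as a block, 12 host genes passed, 4 higher and 8 lower, which is 44.4% against 37.2% of all genes. The genes gained under the block were SNHG29, which was higher in high dye, and SNHG10, SNHG15 and SNHG30, which were lower. SNHG29 had 165, 160, 162 and 151 CPM in high dye libraries, against 128, 155, 141 and 142 CPM in low dye libraries. The SNHG29 groups overlapped, though high dye was above low dye in 4 of 4 replicate numbers, and its log2 fold change was 0.18 ± 0.06 (SE, replicate block) with an edgeR adjusted p of 0.0234 under the block and 0.0772 without it.

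SNHG10, which carries SCARNA13, had 2.57, 3.18, 3.18 and 5.51 CPM in high dye libraries, against 5.45, 5.90, 5.76 and 3.98 CPM in low dye libraries. Replicate 4 ran against the other 3. Its edgeR adjusted p was 0.0449 with the block and 0.116 without it. GLRX5, on the opposite strand, covers 20.1% of SNHG10's exon bases, so the SNHG10 counts are uncertain. GLRX5 averaged 44.3 CPM in high dye libraries, against 53.3 CPM in low dye libraries. Its log2 fold change was -0.27 ± 0.09 (SE), edgeR adjusted p = 0.0363, and 0.00123 with the block. The part of GLRX5 reads in the SNHG10 difference was not tested. SNHG15, the host of SNORA9, had 21.8, 20.1, 20.1 and 20.7 CPM in high dye libraries, against 28.7, 20.7, 27.1 and 20.9 CPM in low dye libraries. High dye was lower in 4 of 4 replicate numbers, by little in replicates 2 and 4, with an edgeR adjusted p of 0.0244 with the block and 0.177 without it. SNHG30, the host of SNORD7, averaged 3.50 ± 1.08 CPM in high dye libraries, against 4.79 ± 0.57 CPM in low dye libraries (SD, n = 4 each), lower in high dye in 3 of 4 replicate numbers and higher in replicate 1, with an edgeR adjusted p of 0.0319 with the block and 0.0909 without it.

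GAS5 takes its name from growth arrest-specific transcripts, and it did not pass the test. It had 201, 164, 141 and 144 CPM in high dye libraries, against 154, 150, 162 and 160 CPM in low dye libraries. High dye was above low dye in replicates 1 and 2 and below it in replicates 3 and 4. The log2 fold change was 0.05 ± 0.12 (SE), edgeR adjusted p = 0.796, and 2 SE around it span -0.18 to 0.29.

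ZFAS1, transcribed from the promoter region of ZNFX1 in the opposite direction and host of SNORD12, SNORD12B and SNORD12C, had 24.0, 16.3, 20.7 and 17.0 CPM in high dye libraries, against 17.8, 15.97, 22.3 and 20.9 CPM in low dye libraries. The groups overlapped, with a log2 fold change of 0.02 ± 0.16 (SE) and an edgeR adjusted p of 0.943. ZNFX1 itself, whose exons on the opposite strand cover 11.1% of ZFAS1's exon bases, rose to 77.2 CPM in high dye cells, against 57.3 CPM in low dye cells, a log2 fold change of 0.43 ± 0.11 (SE), edgeR adjusted p = 0.00918.

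EPB41L4A-AS1, the host of SNORA13, had 12.1, 7.59, 13.5 and 11.2 CPM in high dye libraries, against 11.8, 8.85, 12.0 and 9.67 CPM in low dye libraries. The groups overlapped almost entirely, with a log2 fold change of 0.07 ± 0.20 (SE) and an edgeR adjusted p of 0.845. This gene followed the replicate number: replicate 3 was the highest and replicate 2 the lowest in each of the 5 sort groups. ZFAS1 was likewise lowest in replicate 2 in all 5 groups, SNHG15 highest in replicate 1 in all 5 and SNHG18 lowest in replicate 4 in all 5. EPB41L4A-AS1 shares 49.6% of its exon bases with EPB41L4A on the opposite strand, and SNHG16, SNHG6 and SNHG7 share 30.6, 29.3 and 25.2% of theirs with protein-coding neighbours, so their counts are uncertain.

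SNHG5 had 147, 124, 127 and 124 CPM in high dye libraries, against 123, 103, 120 and 126 CPM in low dye libraries, with a log2 fold change of 0.15 ± 0.08 (SE) and an edgeR adjusted p of 0.245. SNHG7, SNHG19 and SNHG6 had log2 fold changes of 0.00, 0.02 and -0.06, each with an edgeR adjusted p above 0.7. SNHG16 and SNHG18 were at -0.08 ± 0.10 and -0.10 ± 0.08 (SE), and did not pass. The low genes SNHG4, SNHG9, SNHG11 and SNHG20 had SEs of 0.17, 0.23, 0.23 and 0.18 on the log2 scale, and none of them passed. SNHG28 and SNHG31, at 0.42 and 1.02 CPM in the median library, had SEs of 0.45 and 0.47.

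Genes that rose and genes that fell were found with either kind of snoRNA. Among hosts of box C/D snoRNAs only, 2 rose and 2 fell of 12 measured. Among hosts of H/ACA snoRNAs only, 1 rose and 2 fell of 10. Of the 2 measured genes with both kinds, SNHG12 fell and GAS5 did not pass. Among the 7 genes with a pyrimidine run at the start, SNHG32 rose and SNHG12 fell, and among the 17 measured genes with another annotated start, 2 rose and 4 fell.

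Markers of proliferation moved with the gates. Summed over MKI67, TOP2A, CENPF, ASPM, MCM2 and PCNA they were 1026 to 2070 CPM in high dye libraries, against 2262 to 2622 CPM in low dye libraries, with 5 of the 6 genes lower. The stress and arrest genes CDKN1A, GDF15, ATF3 and DDIT3 summed to 701 to 1638 CPM in high dye libraries, against 141 to 263 CPM in low dye libraries, and all 4 rose. The part of either in the host gene differences was not tested. Of the 9 fibroblast markers, 4 rose and none fell, or 7 rose and 1 fell with the block, and their sum was 21541 to 29647 CPM in high dye against 17465 to 19136 CPM in low dye libraries. Epithelial markers summed to at most 0.804 CPM in high dye libraries, against 0.704 CPM in low dye libraries, and erythroid markers to at most 0.402 CPM in high dye, against 0.128 CPM in low dye libraries. Endothelial, leukocyte and melanocyte markers summed to at most 5.14, 1.38 and 3.16 CPM in high dye, against 3.82, 0.674 and 1.31 CPM in low dye libraries. In bulk RNA, fewer cells with a transcript and less of it per cell cannot be told apart.

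The proteins that the snoRNAs bind were counted beside their hosts. Of 8 core snoRNP proteins, 5 fell in high dye cells and none rose, with a median log2 fold change of -0.29. Fibrillarin (FBL), the methyltransferase of box C/D particles, was at -0.38 ± 0.09 (SE), edgeR adjusted p = 0.00768, and NOP56, its partner, at -0.43 ± 0.11, adjusted p = 0.00957. Dyskerin (DKC1), the pseudouridine synthase of H/ACA particles, was at -0.39 ± 0.08, edgeR adjusted p = 0.00454, and GAR1 at -0.24 ± 0.08, adjusted p = 0.0484. Of 13 assembly factors, 4 fell and none rose, among them NAF1, which loads H/ACA particles, at -0.57 ± 0.08 (SE), edgeR adjusted p = 0.000484, and NOLC1, a nucleolar and Cajal body phosphoprotein, at -0.39 ± 0.08, adjusted p = 0.00367. The block gave 5 lower core proteins and 6 lower assembly factors. The backgrounds of 17.7% of all genes, and 37.2% with the block, apply to these counts and to the following ones.

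Of 10 nonsense-mediated decay factors, UPF1, the central helicase, fell, at -0.22 ± 0.08 (SE), edgeR adjusted p = 0.0453, and none rose, while the replicate block gave 1 higher and 3 lower. Ribosomal protein and elongation factor genes, taken by symbol, gave 6 higher and 0 lower of 90 measured, 6.67%, with a median of 0.07. Their starts were not checked here, and the list takes in like-named genes such as RPS27L. RPS27L was at 0.48 ± 0.09 (SE) and RPS19 at 0.30 ± 0.07, with edgeR adjusted p of 0.00223 and 0.00603. The block moved that count to 19 higher and 2 lower. Protein-coding genes with a snoRNA inside gave 17 higher and 36 lower of 201, 26.4%, with a median of -0.04, and 30 higher and 56 lower with the block. That list shares 32 genes with the ribosomal and elongation factor list, DKC1, NOP56 and NOP58 with the core proteins, PCNA with the proliferation markers, and SNHG32 with the host genes described here, so the counts are not separate. The smallest p among the protein-coding hosts belonged to ASTN2, at 1.555 ± 0.147 (SE), edgeR adjusted p = 3.08e-05. OSCP1 was next, at 1.355 ± 0.226, adjusted p = 0.0012. Both rose, while the following 2 fell. UCHL5 was at -0.57 ± 0.10 (SE), edgeR adjusted p = 0.00126. TAF1D, a subunit of the RNA polymerase I factor SL1, was at -0.41 ± 0.07 (SE), edgeR adjusted p = 0.00148. Of 16 measured other non-coding hosts, DANCR alone passed, at -0.36 ± 0.09 (SE), edgeR adjusted p = 0.0107, and 3 were lower with the block.

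The gates in order give the same libraries a finer reading. Over the 16 gated libraries, coded in equal steps from low to high, 10 of the 27 host genes passed, 37.0% against 26.2% of 14419 genes tested. The 8 genes of the outer comparison were among them, which uses the same outer libraries, and SNHG29 and SNHG30 were added. SNHG29 had 0.07 ± 0.02 and SNHG30 -0.16 ± 0.05 log2 units per gate (SE), with edgeR adjusted p of 0.0268 and 0.0360. SNHG29 was lost in 3 and SNHG30 in 5 of the 16 fits that left out 1 library, with adjusted p of up to 0.0765 and 0.0865. The other 8 kept their call in all 16.

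SNHG1 averaged 123 CPM in low, 107 in midlow, 79.9 in midhigh and 79.8 CPM in high dye libraries, so the means of the 2 upper gates were close. Per gate, its slope was -0.23 ± 0.03 log2 units (SE), edgeR adjusted p = 0.000264. SNHG3 averaged 94.3 CPM in low, 75.9 in midlow, 61.7 in midhigh and 57.1 CPM in high dye libraries, a lower mean at each gate, with a slope of -0.25 ± 0.04 (SE), edgeR adjusted p = 0.000350. SNHG12, SNHG17 and SNHG26 had slopes of -0.17, -0.13 and -0.15 log2 units per gate, with edgeR adjusted p of 0.00200, 0.00715 and 0.0106.

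SNHG32 averaged 61.1 CPM in low, 59.8 in midlow, 67.2 in midhigh and 81.0 CPM in high dye libraries. SNHG8 averaged 32.9 CPM in low, 32.6 in midlow, 36.2 in midhigh and 46.1 CPM in high dye libraries. In both, the means of the lower gates were close and the highest mean was in the top gate; the curve itself was not tested. SNHG14 averaged 40.9 CPM in low, 46.3 in midlow, 56.2 in midhigh and 57.2 CPM in high dye libraries, with the means of the 2 upper gates close. The slopes of SNHG8, SNHG32 and SNHG14 were 0.16, 0.14 and 0.17 log2 units per gate, with edgeR adjusted p of 0.00194, 0.00205 and 0.00622. Under the replicate block 12 host genes passed the trend, 4 upward and 8 downward, which is 44.4% against 43.8% of all genes; SNHG10 and SNHG15 were the ones added.

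**Figure D3:**
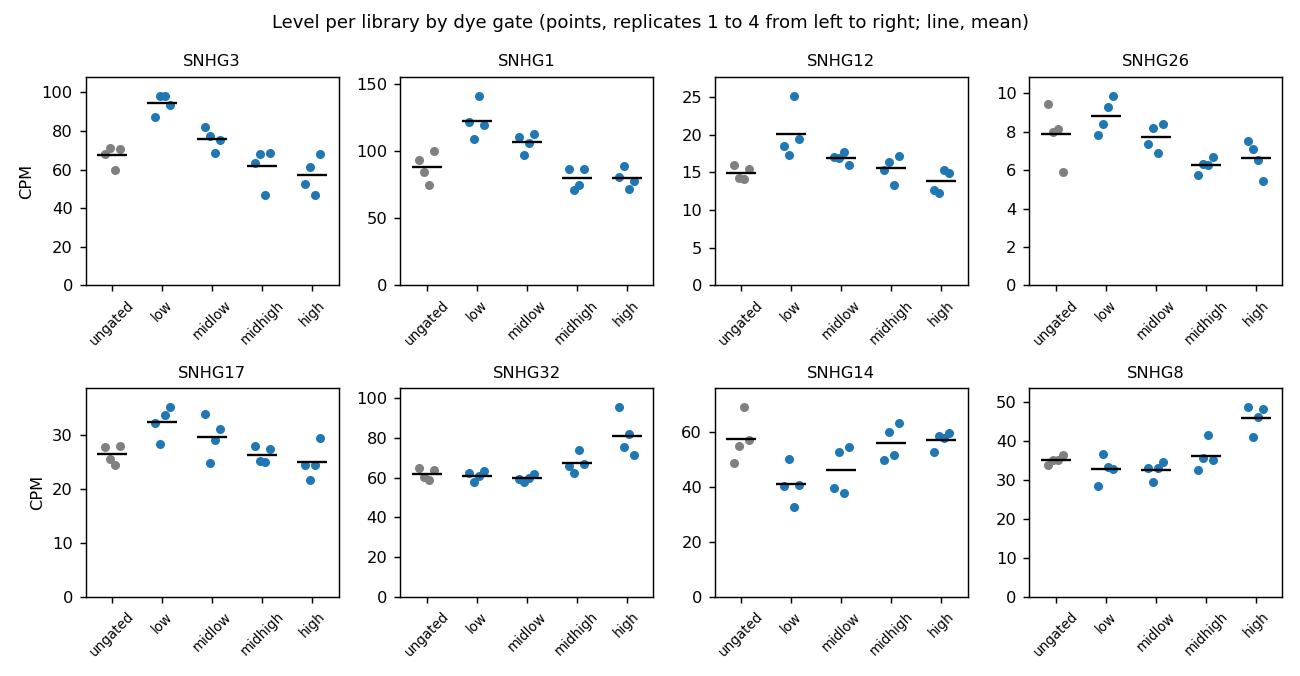
CPM in each of the 20 sort libraries for the 8 host genes that passed between high and low dye, from ungated cells through the gates in order; points are replicates 1 to 4 from left to right and lines are means. The SNHG1 mean is 79.8 CPM in high dye, below 123 CPM in low dye, and the SNHG8 mean is 46.1 CPM in high dye, above 32.9 CPM in low dye.

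Between the inner gates, midhigh against midlow, no host gene passed without the replicate block, and 0% of all genes did. DESeq2 called 1 host gene, and the share of all genes it called is not given here. Before adjustment 4 of 27 host genes were under 0.05, beside 1891 of 14592 genes. SNHG1 had 86.9, 71.2, 74.8 and 86.6 CPM in midhigh, against 111, 96.7, 106 and 113 CPM in midlow libraries, without overlap. Its log2 fold change was -0.42 ± 0.10 (SE), with an edgeR adjusted p of 0.159, and 0.00565 with the replicate block. SNHG3 was at -0.30 ± 0.12 (SE), edgeR adjusted p = 0.294, and 0.0216 with the block. SNHG32 was at 0.17 ± 0.08 (SE), edgeR adjusted p = 0.360, and 0.110 with the block. The block called 2 host genes, SNHG1 and SNHG3, beside 10.8% of all genes.

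The outer gates were also set against unsorted cells. Both comparisons use the same 4 ungated libraries, so their values are set side by side. Without the replicate block, no host gene passed in high dye against ungated cells, beside 0.00685% of all genes. DESeq2 called 2, and before adjustment 2 of 27 were under 0.05, beside 1543 of 14592 genes. None passed without it in low dye against ungated cells, beside 0.0754% of all genes. DESeq2 called 3, and before adjustment 7 of 27 were under 0.05, beside 1898 of 14592 genes. The shares of all genes that DESeq2 called are not given here. With the replicate block, 2 host genes were higher in high dye, beside 7.59% of all genes, and 5 were higher and 1 lower in low dye, beside 10.8%.

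SNHG32 averaged 81.0 ± 10.5 CPM in high dye and 61.9 ± 2.85 CPM in ungated cells (SD, n = 4 each), without overlap. Its log2 fold change was 0.39 ± 0.08 (SE), edgeR adjusted p = 0.222 and 0.00380 with the block, while low dye against ungated cells gave -0.02 ± 0.08. SNHG8 averaged 46.1 ± 3.49 CPM in high dye and 35.2 ± 1.12 CPM in ungated cells (SD, n = 4 each), without overlap. Its log2 fold change was 0.39 ± 0.09 (SE), edgeR adjusted p = 0.240 and 0.00889 with the block, and low dye against ungated cells gave -0.10 ± 0.09. SNHG3 had the third smallest p, with 57.1 CPM in high dye and 67.5 CPM in ungated cells and a log2 fold change of -0.24 ± 0.12 (SE), edgeR adjusted p = 0.472.

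SNHG1 averaged 123 ± 13.3 CPM in low dye and 88.1 ± 10.8 CPM in ungated cells (SD, n = 4 each), without overlap. Its log2 fold change was 0.48 ± 0.10 (SE), edgeR adjusted p = 0.0710 and 0.00133 with the block, while high dye against ungated cells gave -0.14 ± 0.10. SNHG3 averaged 94.3 ± 5.04 CPM in low dye and 67.5 ± 5.18 CPM in ungated cells (SD, n = 4 each), also without overlap, with a log2 fold change of 0.48 ± 0.12 (SE), edgeR adjusted p = 0.0979 and 0.000812 with the block. SNHG12 averaged 20.1 ± 3.47 CPM in low dye and 14.96 ± 0.905 CPM in ungated cells (SD, n = 4 each), with a log2 fold change of 0.43 ± 0.11 (SE), edgeR adjusted p = 0.130 and 0.0148 with the block.

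SNHG15 and SNHG17 were the other genes higher in low dye under the block, at 0.31 and 0.29 on the log2 scale without it. SNHG14 was the 1 that was lower, with 40.9 CPM in low dye against 57.5 CPM in ungated cells, a log2 fold change of -0.49 ± 0.14 (SE), edgeR adjusted p = 0.146 and 0.00632 with the block. High dye against ungated cells gave -0.01 ± 0.14 for SNHG14. Whether the distances of the outer gates from ungated cells differ was not tested for any of these genes.

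**Figure D4:**
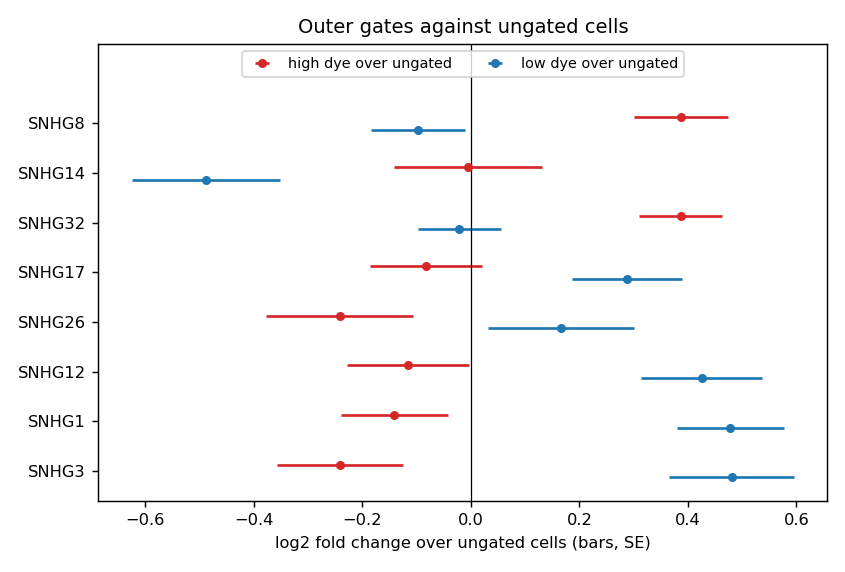
Log2 fold change over ungated cells for the 8 host genes that passed between the outer gates, high dye in red above low dye in blue, with bars of 1 SE. SNHG8 and SNHG32 stand at 0.39 in high dye and near 0 in low dye, while SNHG1, SNHG3 and SNHG12 stand between 0.43 and 0.48 in low dye and nearer 0 in high dye.

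The drug set asks whether inhibiting either histone enzyme changed the host RNAs. SNHG28 joined the genes that failed the filter in this set, so 26 host genes were measured. With LSD1 inhibition, 2 libraries were set against DMSO and no drug, taken as 1 control of 2. No host gene passed without the block, beside 0.114% of 14002 genes, and DESeq2 called none either. The unadjusted p was under 0.05 for 1 of 26 host genes, beside 950 of 14002 genes. The median log2 fold change was 0.07 for the host genes and 0.00 for all genes, and that of the host genes ran from -0.02 (without LSD1 inhibition replicate 1) to 0.12 (without DMSO) with 1 library left out.

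SNHG19, the host of SNORD60, had 18.1 and 17.5 CPM with LSD1 inhibition, against 13.3 CPM in DMSO and 14.3 CPM with no drug. Both treated libraries lay above both controls, with a log2 fold change of 0.37 ± 0.14 (SE), edgeR adjusted p = 0.674. With the replicate block the edgeR adjusted p of SNHG19 was 0.00866. It was the 1 host gene to pass under the block, 3.85% of 26, beside 9.10% of all genes called higher. Genes called lower are not part of that 9.10%, and their share is not given here. DMSO was the only control of replicate 1 and no drug the only control of replicate 2. The block therefore cannot be told apart from the kind of control, and the fit holds only 4 libraries. SNHG32 had 70.6 and 68.5 CPM with LSD1 inhibition, against 62.0 CPM in DMSO and 61.5 CPM with no drug, a log2 fold change of 0.18 ± 0.10 (SE), edgeR adjusted p = 0.882. SNHG31 had 1.09 and 0.938 CPM with LSD1 inhibition, against 1.86 CPM in DMSO and 1.24 CPM with no drug, a log2 fold change of -0.60 ± 0.36 (SE), edgeR adjusted p = 0.896; without the DMSO library the value was -0.29.

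GAS5 had 139 and 129 CPM with LSD1 inhibition, against 137 CPM in DMSO and 119 CPM with no drug. SNHG1 had 68.1 and 54.9 CPM with LSD1 inhibition, against 73.9 CPM in DMSO and 64.7 CPM with no drug. In both genes the libraries of replicate 1 were above those of replicate 2 under either condition, and the groups overlapped.

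DOT1L inhibition and DMSO had 1 library each, so there is no test, and the 95% exact Poisson intervals cover counting error only. Of 18 host genes with a mean of at least 10 CPM, 0 differed by 1.5-fold or more, beside 2.96% of 9001 genes at that level. SNHG17 had 18.9 CPM (16.9 to 21.0) with DOT1L inhibition and 22.3 CPM (20.03 to 24.7) in DMSO, a log2 ratio of -0.24. SNHG19 had 15.7 CPM (13.9 to 17.7) with DOT1L inhibition and 13.3 CPM (11.6 to 15.2) in DMSO, a log2 ratio of 0.23. SNHG16 had 27.5 CPM (25.1 to 30.1) with DOT1L inhibition and 31.3 CPM (28.7 to 34.2) in DMSO, a log2 ratio of -0.19. The intervals overlap in each of the 3 genes, which had the largest ratios of the 18. The median log2 ratio was -0.02 for the 18 host genes and -0.03 for all genes at that level.

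**Figure D5:**
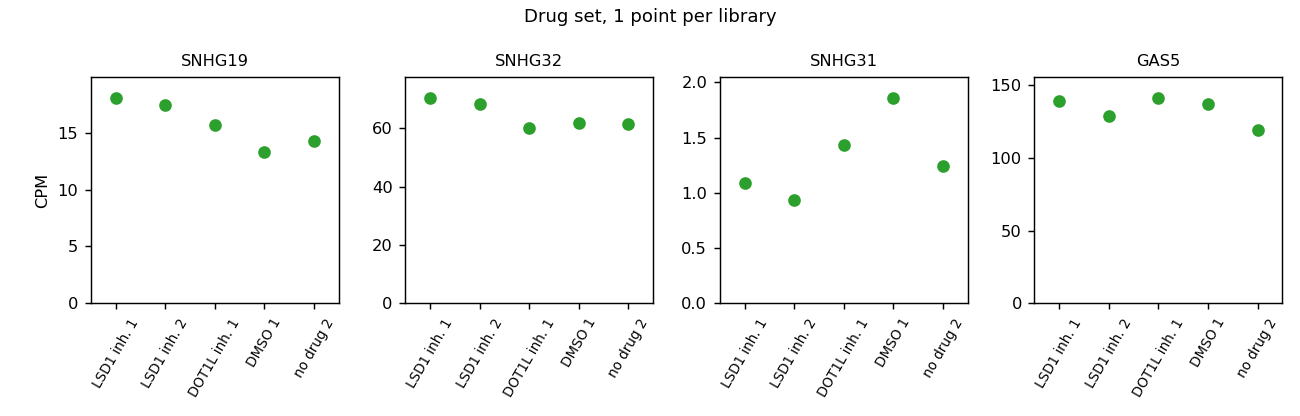
CPM in each drug set library for the 3 host genes with the smallest p under LSD1 inhibition and for GAS5; each point is 1 library, with LSD1 and DOT1L inhibition left of DMSO and no drug. SNHG19 stands at 18.1 and 17.5 CPM with LSD1 inhibition, 15.7 CPM with DOT1L inhibition, 13.3 CPM in DMSO and 14.3 CPM with no drug.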

How the data were processed

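RNA of 25 libraries was selected for poly(A) and prepared with a NEBNext Ultra II kit, per the labels' protocols. The authors deposited counts per Ensembl gene for each library; STAR, HTSeq and hg38 are named, per the submitters' processing notes, and the strand setting and annotation release are not given in the sources used here. Rows that name no gene were left out of library sizes. No feature (4.33 to 7.72%) and ambiguous (7.14 to 7.62%) are shares of gene counts and all such rows together. Symbols and coordinates came from GENCODE 29 (58039 of 58302 IDs matched, all 31 members), and snoRNA names and start windows from RefSeq.

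The test on the deposited counts was edgeR 4.0.16 under R 4.3.3 (TMM scaling, minimum count 10, minimum total 15, quasi-likelihood F test, Benjamini-Hochberg over all genes, threshold 0.05). All 20 sort libraries shared 1 fit, the trend used the 16 gated ones, and LSD1 inhibition the 4 libraries compared. SEs were derived from the F statistic. CPM were scaled within the sort and the drug set separately. DESeq2 1.42.0, a replicate block, other filters and left-out libraries were alternatives. Scripts were tested on simulated data. For a total of 15015039 to 20030093 counts, 3 counts are 0.150 to 0.200 CPM.

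Replicate numbers pair the sort samples: deviations from group means correlated above 0.1 for each of the 40 same-number library pairs (0.146 to 0.618), and in 16 of 120 with different numbers. Taking deviations from group means itself draws different-number pairs below 0, so those are not an independent reference. The labels state no pairing, so the main fit left it out, and its SEs, calls and left-out-library fits ignore it. In the drug set each compared group had 2 libraries, whose deviations from the group mean mirror each other. The 2 pairs there therefore gave the same value, 0.557, and cannot establish pairing. Named genes are all those called in a comparison (at most 10), the 3 with the smallest p where fewer than 3 were called, GAS5, ZFAS1, SNHG1, EPB41L4A-AS1 and the 5 highest per length; genes gained under the block and the remaining ones were named after their values were seen. The members and the lists were chosen with earlier results of these data known.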

Additional observations from a re-analysis of the deposited data

Results flagged for a closer look

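In 4 of 135 groups of 4 sort libraries, 1 library stood apart from the other 3 of its group, by a test that flags about 1 group in 20 by chance. SNHG16 was at 32.8 CPM in midhigh dye replicate 1, with the next at 27.3 CPM. SNHG28 was at 0.401 CPM in ungated replicate 1, with the next at 0.711 CPM. SNHG5 was at 146.7 CPM in high dye replicate 1, with the next at 127.2 CPM. SNHG7 was at 21.85 CPM in midhigh dye replicate 2, with the next at 26.2 CPM. None of these 4 genes passed a comparison in the fit without the block.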

How the results depend on the processing

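The count of 8 host genes between high and low dye ran from 5 to 9 when 1 library was left out, with the 5 reached without high dye replicate 3. It was 12 with the replicate block, 6 with only the compared groups in the fit and 7 with no filter. The trend count of 10 ran from 8 to 12. Counts of 0 became, under the replicate block, 2 (midhigh against midlow), 2 (high dye against ungated), 6 (low dye against ungated) and 1 (LSD1 inhibition). Under DESeq2 they were 1, 2, 3 and 0 in that order, and with no filter 1 in midhigh against midlow and 3 in low dye against ungated. Shares over all genes under DESeq2, with no filter or with only the compared groups are not given here. Left-out libraries moved them to between 0 and 1 in high dye against ungated (1 without high dye replicate 4) and in low dye against ungated (1 without ungated replicate 4). The block changed no call among host genes other than those named, and the cause of the other shifts was not tested. SNHG1, SNHG3, SNHG8, SNHG12 and SNHG32 kept their call between high and low dye under each alternative run. The sign between high and low dye with 1 library left out was followed for 15 host genes. Of these, 3 changed sign, none of them called: EPB41L4A-AS1 (-0.037 to 0.215), GAS5 (-0.071 to 0.118) and ZFAS1 (-0.099 to 0.1002). The other measured host genes, some with log2 fold changes near 0 such as SNHG7 and SNHG19, were not followed in this way. SNHG26 lost its call with no filter (adjusted p 0.160) and, with SNHG17, with only the compared groups (0.0958 and 0.0598); in the trend, SNHG29 and SNHG30 lost theirs with no filter (0.131 and 0.0731). The median over the host genes moved to 0.02 in midhigh against midlow without midlow dye replicate 1, against -0.05 with all libraries. Of the 4 host genes too low to test, none exceeded 17 counts in a sort library.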
